A study of Mus musculus with 7 samples.

Results

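The RNA levels of 10 genes that encode proteins of maternal mRNA storage were followed in mini-oocytes, the oocyte-like cells that mESCs form when oocyte transcription factors are expressed. The genes were Zar1, Zar1l, Ybx2, Cpeb1, Eif4enif1, Eif4e1b, Ddx6, Lsm14a, Lsm14b and Patl2, taken by their symbols from a table of 55364 genes, and all 10 were listed and reached 1 TPM in 2 or more libraries, the filter that 21780 genes passed. In 4F-mini-oocytes the factors were Nobox, Figla, Tbpl2 and Lhx8, and in 8F-mini-oocytes Stat3, Dynll1, Sub1 and Sohlh1 were added. The 4F- and 8F-mESCs are separate lines, and the 8F line also has an mCherry reporter of Npm2, so line, reporter and added factors cannot be told apart between them. Each factor was fused to a destabilization domain and kept stable by Shield-1, in medium with stem cell factor (SCF) and the ROCK inhibitor Y-27632, and Shield-1 was left out of the fresh medium from day 12. The groups were 4F-mini-oocytes at day 7 (2 libraries, each from 1000 pooled cells), 4F-mini-oocytes at day 21 (3 libraries, each from 10 pooled cells) and 8F-mini-oocytes at day 21 (2 libraries, each from 10 pooled cells), all from female mESC lines derived from BVSC H18 on a hybrid 129/C57BL6 background. Day, the number of pooled cells and the presence of Shield-1 change together between the 2 days, so their parts cannot be told apart. The sources do not say that replicate libraries came from separate cultures, and p-values then measure the spread between these samples, which may be technical.

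A growing oocyte makes far more mRNA than it translates at once, and most of that mRNA is kept dormant with a short poly(A) tail until meiotic maturation or early cleavage. Dormant mRNA is held in particles in which RNA-binding proteins (ZAR1, ZAR1L, YBX2, CPEB1) mark the message, the eIF4E-binding protein 4E-T (the product of Eif4enif1) and the oocyte form of the cap-binding protein (Eif4e1b) sit at the cap end, and the helicase DDX6 with LSM14A, LSM14B and PATL2 holds the complex together. CPEB1 binds U-rich elements close to the polyadenylation signal and, once phosphorylated, promotes the lengthening of the tail that brings a message into translation.

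The estimated number of reads on genes was 9506135 and 12317535 at day 7 and between 14612696 and 18027834 at day 21, so 3 reads on 1 kb of exon stood for between 0.515 and 0.764 TPM. The reads were amplified and carry no molecular identifiers, so such floors cover counting error only. The 10 genes with the highest TPM of a library took 28.5% and 31.8% of the total at day 7 and between 10.2% and 14.0% at day 21. The label of the cells was checked with 8 oocyte markers (Zp1, Zp2, Zp3, Gdf9, Bmp15, Npm2, Ooep and Oosp1), which summed to 4286.6 and 5328.3 TPM at day 7 and to between 21043.0 and 25181.8 TPM at day 21. The 7 granulosa cell markers never summed to more than 5.56 TPM, with Inha listed at 0 in every library, and the 6 fibroblast markers never to more than 5.55 TPM. The 7 mESC markers summed to between 61.4 and 92.7 TPM in the 7 libraries, where Nanog, Sox2 and Tdgf1 stayed at or below 3.59 TPM. Klf4 was between 12.2 and 26.5 TPM and Tfcp2l1 between 13.9 and 24.7 TPM, Zfp42 was at 20.6 and 21.9 TPM at day 7 and at most 8.75 TPM at day 21, and Esrrb was at 3.92 and 12.3 TPM at day 7 and between 27.6 and 44.3 TPM at day 21. The 7 trophoblast markers moved with the day: they summed to 1140.6 and 1620.6 TPM at day 7, most of it Krt8 and Krt18, and to between 26.6 and 137.0 TPM at day 21, and 5 of the 7 were above every day 21 library at day 7. Krt7 was at 24.3 and 25.1 TPM, Hand1 at 12.0 and 63.6 TPM and Gata3 at 8.3 and 10.6 TPM at day 7, and each was at most 0.367 TPM at day 21. Cdx2 and Elf5 were listed at 0 in both day 7 libraries and were at most 1.13 TPM at day 21. The part of these markers in the differences between the days was not tested.

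Promoter sequence was examined because the factors expressed in these cells recognise short motifs. FIGLA binds the E-box (CANNTG) with a helix-loop-helix partner, NOBOX and LHX8 are homeodomain proteins of the class that binds TAATTA and TAATTG, and Tbpl2 encodes an oocyte relative of the TATA-binding protein. RefSeq windows (GRCm38.p6, from 250 bases before to 50 bases after a start) were at hand for 8 of the 10 genes, and not for Ddx6 and Eif4e1b. A gene with several windows counts once if any of them holds a match. An E-box was found in 7 of the 8, against 72.3% of all 32851 windows. TAATTG was found in 1 of the 8 (Zar1l, at 2 places), against 8.00% of all windows, and TAATTA was found in none of the 8, against 5.29%. TATAAA was found in 1 of the 8 (Cpeb1), on the strand opposite to the gene, against 13.6% of all windows. Below are the 3 windows with the most matches, cut to the stretch from 250 bases before the start to 20 bases after it, on the strand of the gene, with each match in capitals (motifs were searched on both strands, so TAATTG can read as CAATTA and TATAAA as TTTATA).
Zar1, chr5:72581065-72581334, minus strand: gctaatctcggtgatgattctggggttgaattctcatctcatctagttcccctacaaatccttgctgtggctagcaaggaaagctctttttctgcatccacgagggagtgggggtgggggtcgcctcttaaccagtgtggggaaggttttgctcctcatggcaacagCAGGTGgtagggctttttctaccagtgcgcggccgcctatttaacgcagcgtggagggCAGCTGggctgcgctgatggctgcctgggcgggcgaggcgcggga
Zar1l, chr5:150518140-150518409, minus strand: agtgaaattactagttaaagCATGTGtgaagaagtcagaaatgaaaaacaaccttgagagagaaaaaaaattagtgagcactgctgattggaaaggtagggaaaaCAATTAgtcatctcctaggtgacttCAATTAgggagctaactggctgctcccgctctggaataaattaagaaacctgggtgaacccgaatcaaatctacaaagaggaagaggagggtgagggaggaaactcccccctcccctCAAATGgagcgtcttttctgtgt
Cpeb1, chr7:81454739-81455008, minus strand: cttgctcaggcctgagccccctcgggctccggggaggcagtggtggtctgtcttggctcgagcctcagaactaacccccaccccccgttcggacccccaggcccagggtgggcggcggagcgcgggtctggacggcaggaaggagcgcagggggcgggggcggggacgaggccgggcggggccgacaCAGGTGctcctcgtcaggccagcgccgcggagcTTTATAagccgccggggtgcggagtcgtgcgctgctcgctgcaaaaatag
In Zar1 the E-boxes begin 83 and 25 bases before the start, in Zar1l they begin 230 and 3 bases before it, with the 2 homeodomain matches between them at 145 and 120 bases. The single E-box of the printed Cpeb1 stretch begins 63 bases before the start and the TATA-like match 30 bases before it. A match is a description of the letters and was not tested as a site.

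Together the 10 genes took a larger share of the RNA at day 21 than at day 7. Their summed level was 2082.8 and 2139.2 TPM in the day 7 libraries, 6138.0, 5914.9 and 5623.5 TPM in the day 21 4F libraries, and 5127.8 and 5046.5 TPM in the day 21 8F libraries. Each day 21 library thus had a higher sum than either day 7 library, and both 8F libraries had a lower sum than any 4F library of the same day. A single gene, Lsm14b, made up 52.2% and 58.4% of this sum at day 7, between 37.8% and 41.6% in 4F-mini-oocytes at day 21, and 30.7% and 33.5% in 8F-mini-oocytes. Without Lsm14b the sums were 3598.0, 3454.8 and 3497.0 TPM in the 4F and 3555.2 and 3357.5 TPM in the 8F libraries of day 21, which overlap. In bulk samples, fewer cells of a type and less RNA per cell cannot be told apart.

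**Figure D1:**
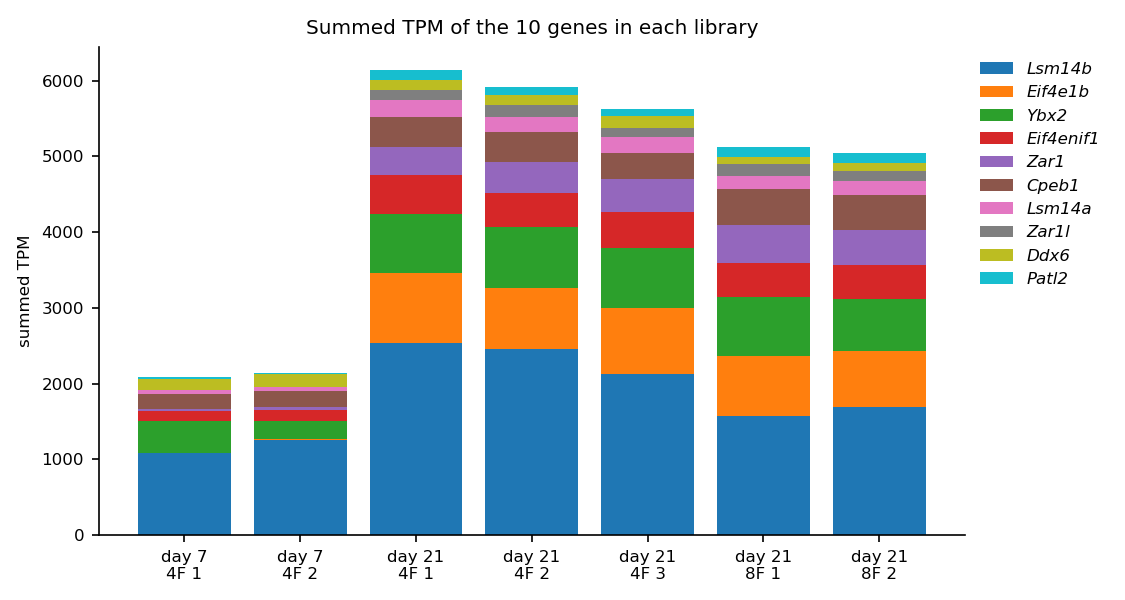
Summed TPM of the 10 storage genes in each of the 7 libraries, as stacked bars with 1 colour per gene. The day 7 bars end at 2082.8 and 2139.2 TPM and the day 21 bars between 5046.5 and 6138.0 TPM, and Lsm14b is the tallest block in each bar.

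Day 7 was compared with day 21 of 4F-mini-oocytes to follow these genes through the culture. Of the 10 genes, 9 rose and none fell at FDR 0.05 (limma on log2(TPM + 1), Benjamini-Hochberg (BH) adjustment across the 21780 genes), against a background of 25.3% of all tested genes higher and 15.3% lower. The exception was Ddx6. The median log2 fold change was 1.91 over the 10 genes and 0.17 over all genes tested. The largest rises were those of Eif4e1b and Zar1l, the genes with the lowest levels at day 7, and the smallest were those of Cpeb1 and Lsm14b, which were already abundant. All 9 kept the direction and the call in each of 19 other settings. Scaling moved the level of the whole transcriptome: the median log2 fold change of all genes was -0.06 with median-of-ratios factors, 0.04 with quantile normalization, -0.32 with voom on recovered reads and -0.08 when the TPM were recomputed without the top genes, and the share of called genes that were higher at day 21 went from 62.3% to 48.6%, 52.0%, 37.3% and 48.0% in the same order.

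**Figure D2:**
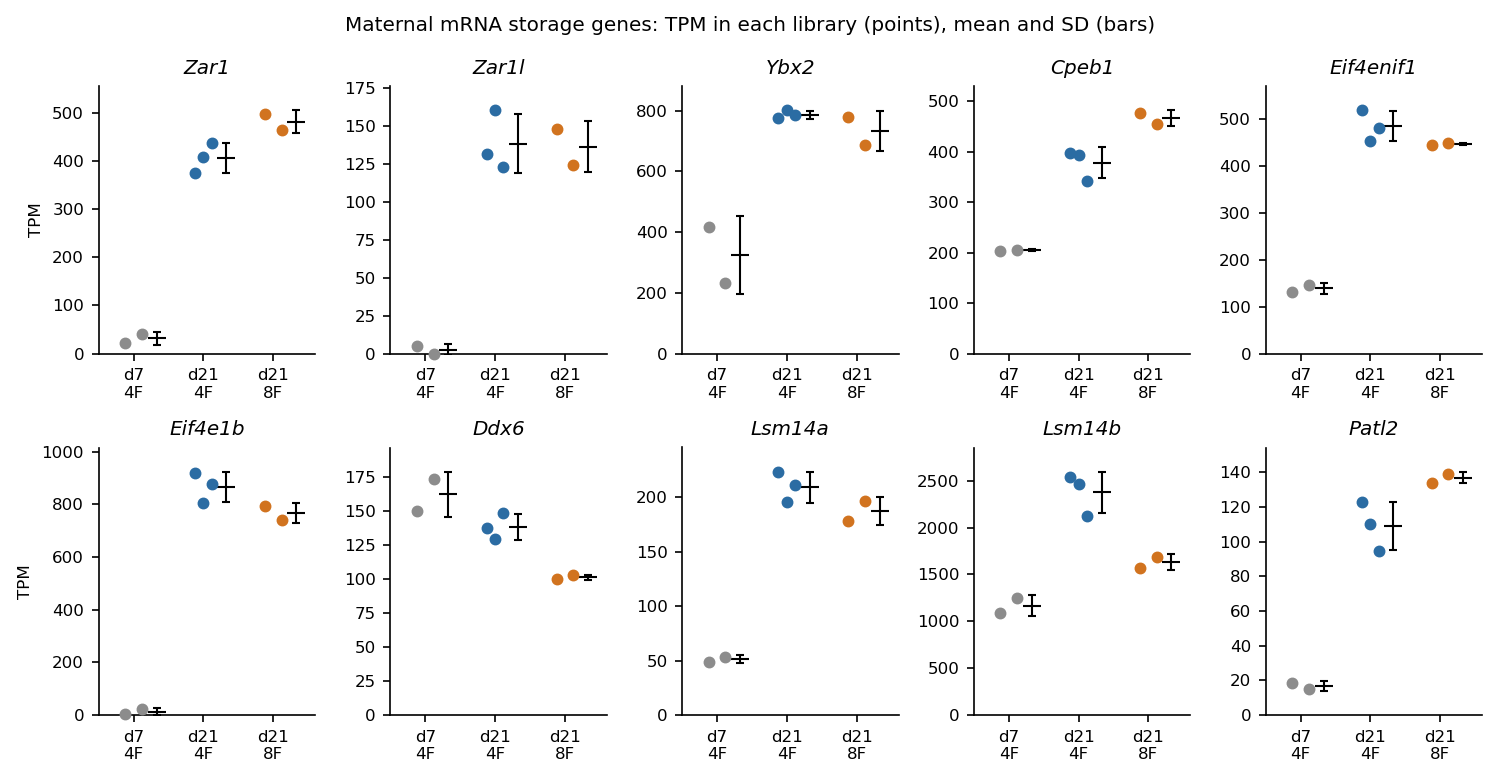
TPM of each storage gene (vertical axis, from 0, with its own scale per panel) in 4F-mini-oocytes at day 7 (d7 4F), 4F-mini-oocytes at day 21 (d21 4F) and day 21 8F-mini-oocytes (d21 8F). Points are libraries and the bars beside them the mean and SD (n = 2, 3 and 2); the day 21 points lie above the day 7 points in every panel except that of Ddx6, where they lie below.

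Among the RNA-binding proteins, Zar1 and Zar1l had the steepest changes. Zar1 (ENSMUSG00000063935.3, chromosome 5 of mm10, 72576806 to 72581254, minus strand) encodes a zinc finger protein that binds maternal mRNA and organises it around the mitochondria of the oocyte. It was at 21.9 and 41.1 TPM at day 7, at 375, 408 and 438 TPM in 4F-mini-oocytes at day 21, and at 499 and 465 TPM in 8F-mini-oocytes. The day 7 values lie far below all 5 others, and the 2 8F libraries lie above the 3 4F libraries. Between the days in 4F-mini-oocytes its log2 fold change was 3.71 (standard error, SE, 0.243, limma, adjusted p = 0.000121).

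Zar1l (ENSMUSG00000056586.8, chromosome 5, 150507055 to 150518164, minus strand), its relative with the same kind of zinc finger, was at 5.13 TPM in replicate 1 and listed at 0 in replicate 2 of day 7. At day 21 it was at 131, 160 and 123 TPM in 4F-mini-oocytes and at 148 and 124 TPM in 8F-mini-oocytes. The day 7 values stand on few reads, an estimated 18 in replicate 1, and 3 reads would have given 0.642 TPM in replicate 2. Its log2 fold change between the days was 5.80 with a wide SE of 0.677 (limma, adjusted p = 0.000951), and it was 4.32 and 7.57 at the extremes of the other settings, which were a pseudocount of 5 and of 0.1. Zar1l remained below Zar1 in every library.

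Ybx2 (ENSMUSG00000018554.13, chromosome 11, 69935796 to 69941605, plus strand) encodes MSY2, the germ cell Y-box protein that coats stored mRNA. It was at 416 and 233 TPM at day 7, at 775, 801 and 785 TPM in 4F-mini-oocytes at day 21, and at 780 and 687 TPM in 8F-mini-oocytes. Its level was among the highest of the 10 genes at both days, the 2 day 7 libraries were far apart, and the 4F libraries of day 21 lay close together. The log2 fold change between the days was 1.34 (SE 0.231, limma, adjusted p = 0.00449).

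Cpeb1 (ENSMUSG00000025586.17, chromosome 7, 81347026 to 81455465, minus strand), the cytoplasmic polyadenylation element-binding protein, was at 203 and 206 TPM at day 7. It stood at 398, 393 and 342 TPM in 4F-mini-oocytes and at 477 and 455 TPM in 8F-mini-oocytes at day 21. The 3 groups did not overlap, and the order was day 7, 4F and 8F. Its log2 fold change of 0.88 between the days (SE 0.103, limma, adjusted p = 0.000972) was the smallest of the 9 that passed the test, and was 0.32 with quantile normalization and 0.34 with voom.

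Messages can themselves carry the element that CPEB1 binds. The last 100 bases of the 3′ UTR were searched on the strand of the mRNA for TTTTAT and TTTTAAT, and the last 40 bases for the polyadenylation signals AATAAA and ATTAAA, in the transcript with the longest coding sequence of each gene (GENCODE vM21). Zar1l, Cpeb1 and Eif4e1b were left out, since the transcript chosen for each had no annotated 3′ UTR of that length. Of the 7 storage genes searched, 2 (Ybx2 and Lsm14a) held such an element, against 17.7% of 19125 genes, and 6 held a signal, against 72.6%. Only Lsm14a held both, against 13.4% of all these genes. The 2 sites are shown with the element and the signal in capitals.
Ybx2, chr11:69941541-69941570, plus strand: ccaTTTTATgaactgtcatgtgccacctga
Lsm14a, chr7:34344661-34344690, minus strand: tgtTTTTAATAAAggccatggAATAAAgag
In Lsm14a the element TTTTAAT runs into the first of 2 AATAAA signals. The ends that these cells use were not measured, and neither match was tested as a site.

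At the cap end, the gene for the oocyte cap-binding protein had the largest log2 fold change of the 10 between the days, but with a pseudocount of 0.1 and with voom that of Zar1l was larger (7.57 against 6.71 and 7.01 against 6.00), as it was without replicate 1 of day 7 (7.11 against 5.26). Eif4e1b (ENSMUSG00000074895.10, chromosome 13, 54783998 to 54788459, plus strand), an oocyte relative of eIF4E, was at 3.05 and 21.7 TPM at day 7, at 918, 806 and 876 TPM in 4F-mini-oocytes at day 21, and at 794 and 740 TPM in 8F-mini-oocytes. From the second lowest mean of the 10, it came to stand next to Lsm14b at the top of the list. Its log2 fold change between the days was 6.50 (SE 0.632, limma, adjusted p = 0.000467), and the mean at day 21 was 70.2 times that at day 7. The estimate rests on 27 and 255 reads at day 7 and ranged from 5.26 to 7.74 over the other settings.

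Eif4enif1 (ENSMUSG00000020454.17, chromosome 11, 3202392 to 3244588, plus strand), which encodes 4E-T, was at 131 and 146 TPM at day 7. In 4F-mini-oocytes at day 21 it was at 518, 453 and 480 TPM, and in 8F-mini-oocytes at 445 and 448 TPM. The libraries of each group lay close together, with day 7 far below the others, and the rise had a log2 fold change of 1.80 (SE 0.103, limma, adjusted p = 8.5e-05).

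The scaffold genes split. Lsm14b (ENSMUSG00000039108.14, chromosome 2, 180024987 to 180035465, plus strand), which encodes an RNA-associated protein needed in the mouse oocyte for mRNA storage, was the most abundant of the 10 genes in all 7 libraries. It was at 1086.6 and 1249.0 TPM at day 7, at 2540.0, 2460.2 and 2126.5 TPM in 4F-mini-oocytes at day 21, and at 1572.6 and 1689.0 TPM in 8F-mini-oocytes. The 8F libraries thus lay between the other groups. In 4F-mini-oocytes it ranked 55th at day 7 and 27th at day 21 among genes whose group mean reached 1 TPM, and its log2 fold change was 1.02 (SE 0.135, limma, adjusted p = 0.00153).

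Lsm14a (ENSMUSG00000066568.12, chromosome 7, 34344646 to 34393315, minus strand), the relative found in P-bodies of most cells, was at 48.6 and 53.6 TPM at day 7. It was at 223, 195 and 211 TPM in 4F-mini-oocytes and at 178 and 196 TPM in 8F-mini-oocytes at day 21. Its log2 fold change between the days was 2.01 (SE 0.11, limma, adjusted p = 7.6e-05), and its level stayed well below that of Lsm14b. Of its exon bases, 7.4% are shared with other genes, so part of its reads can be split with them, and none of the other 9 genes shares exon bases.

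Patl2 (ENSMUSG00000027233.4, chromosome 2, 122120108 to 122186189, minus strand) encodes an oocyte protein of the PAT1 family that represses translation. It was at 18.6 and 14.8 TPM at day 7, at 123, 110 and 94.9 TPM in 4F-mini-oocytes at day 21, and at 134 and 139 TPM in 8F-mini-oocytes. The groups were in the same order as for Cpeb1, without overlap. Its log2 fold change between the days was 2.64 (SE 0.156, limma, adjusted p = 9.1e-05).

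Ddx6 (ENSMUSG00000032097.10, chromosome 9, 44604892 to 44640731, plus strand), the RNA helicase at the centre of P-bodies, stood apart from the other 9. It was at 150 and 173 TPM at day 7, at 137, 129 and 148 TPM in 4F-mini-oocytes at day 21, and at 100 and 103 TPM in 8F-mini-oocytes. The lowest day 7 library lay just above the highest 4F library of day 21, and the 8F libraries were the lowest of the 7. The log2 fold change between the days in 4F-mini-oocytes was -0.22 (SE 0.112, limma, adjusted p = 0.161), with a 95% interval from -0.49 to 0.04. This call depended on the scaling: relative to a rescaled transcriptome it was past FDR 0.05 and lower at day 21, with log2 fold changes of -0.56 with median-of-ratios factors, -0.84 with quantile normalization, -0.78 with voom and -0.59 without the top genes. With the shift of all genes taken off, the difference was -0.39 in the main setting and between -0.88 and -0.46 in these 4. In each of these scalings Ddx6 had the lowest log2 fold change of the 10 storage genes.

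In 8F- against 4F-mini-oocytes of day 21, none of the 10 genes was past FDR 0.05 in limma after BH adjustment, against a background of 8.37% of all tested genes. At an unadjusted p under 0.05 there were 3, beside 22.3% of all tested genes, and voom on recovered reads called 3 (Zar1 and Cpeb1 higher, Lsm14b lower). The 8F and 4F libraries did not overlap for 7 of the 10 genes, beside 43.8% of all tested genes. Of all genes called here, 47.3% were higher in 8F-mini-oocytes, 62.9% with voom and 61.1% without the trend. Zar1, Cpeb1 and Patl2 were the 3 that lay higher in 8F-mini-oocytes, and Eif4enif1, Eif4e1b, Ddx6 and Lsm14b the 4 that lay lower.

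The closest to the threshold was Lsm14b, with a log2 fold change of -0.54 (SE 0.135, 95% interval -0.86 to -0.22, limma, adjusted p = 0.0616). Ddx6 followed with -0.44 (SE 0.112, 95% interval -0.71 to -0.17, limma, adjusted p = 0.0647), and Cpeb1 with 0.30 (95% interval 0.06 to 0.55, limma, adjusted p = 0.142). Over the other settings the adjusted p from limma ranged from 0.0164 to 0.415 for Lsm14b, from 0.0176 to 0.336 for Ddx6 and from 0.00784 to 0.526 for Cpeb1, and the direction of these 3 did not change. Lsm14b was past the threshold in 3 of 19 settings, Ddx6 in 4 and Cpeb1 in 1. For Patl2 the difference was 0.33 (95% interval -0.05 to 0.70) and for Zar1 0.25 (95% interval -0.34 to 0.83).

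For the remaining genes the interval of the difference bounds what this fit to all 7 libraries can show. It was -0.36 to 0.13 for Eif4enif1, -0.42 to 0.10 for Lsm14a and -0.66 to 0.45 for Ybx2. It was much wider for Zar1l (-1.64 to 1.61) and Eif4e1b (-1.69 to 1.34), because the fit shares its estimate of the spread with the day 7 libraries, in which both genes were low and uneven. The uneven day 7 values of Ybx2 (416 and 233 TPM) and Zar1 (21.9 and 41.1 TPM) entered their intervals in the same way. The table gives at most 9 decimals for a 4F value and up to 17 for an 8F value, and libraries were read on more than 1 sequencer model with different read lengths, not named per library. Factor set and the writing of the values change together and cannot be told apart, and whether read length or processing also differed between 8F and 4F is not given in the sources used here.

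**Figure D3:**
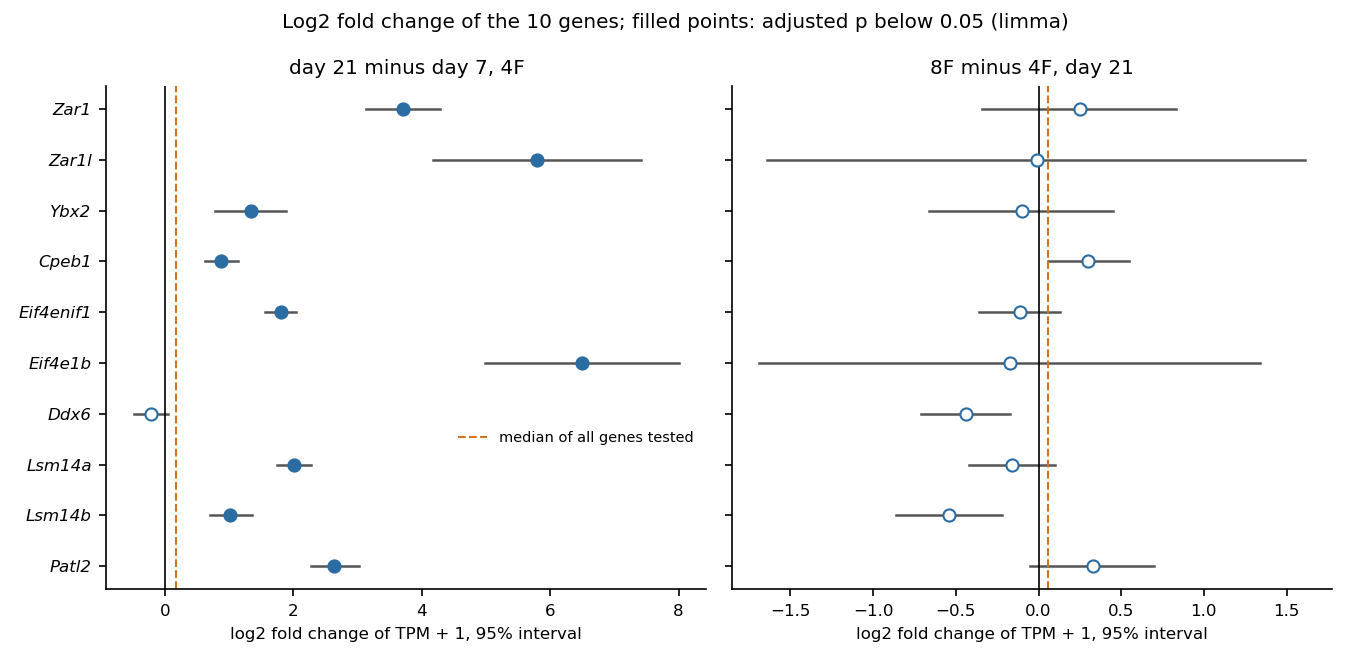
Log2 fold changes of TPM + 1 with their 95% intervals (horizontal axis) for the 10 storage genes, for day 21 against day 7 of 4F-mini-oocytes (left) and for 8F- against 4F-mini-oocytes of day 21 (right, on a narrower axis). Filled points passed FDR 0.05 in limma, which holds for 9 genes on the left and none on the right; the dashed line is the median of all genes tested, at 0.17 and 0.06.

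Compared with 4F-mini-oocytes at day 7, 8F-mini-oocytes at day 21 had 9 storage genes higher and Ddx6 lower at FDR 0.05 in limma, against backgrounds of 24.2% of genes higher and 13.0% lower. Of all called genes 65.1% were higher here, and 51.5%, 51.1%, 47.3% and 51.8% with median-of-ratios factors, quantile normalization, voom and without the top genes. This comparison shares the day 7 libraries with the one above and changes the line and its factors as well as the day. Its values for the genes that stood out were 6.32 for Eif4e1b (SE 0.693), 5.78 for Zar1l, 3.96 for Zar1 and 2.97 for Patl2 on the log2 scale. For Ddx6 the log2 value was -0.66, a fall (SE 0.123, limma, adjusted p = 0.00694), and the call was lost only without replicate 1 of the 8F libraries (adjusted p = 0.0502). Lsm14b was at 0.48 (SE 0.148, limma, adjusted p = 0.0422), a call that was lost in 14 of 19 other settings, with 0.08 under voom, 0.15 without the top genes and 0.16 with median-of-ratios factors. Ybx2, at 1.23 (limma, adjusted p = 0.0103), lost the call in 3 of 19 settings.

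TPM counts reads per base of annotated exon, so an order of different genes depends on the exon length used. For Zar1 that length was 3465 bases, against 1429 in the transcript used for the 3′ UTR, and for Lsm14b 2892 against 2534. The order given here is that of the TPM values. At day 7 the order of the means was Lsm14b, Ybx2, Cpeb1, Ddx6, Eif4enif1, Lsm14a, Zar1, Patl2, Eif4e1b and Zar1l, and the only neighbours whose libraries overlapped were Patl2 with Eif4e1b and Eif4e1b with Zar1l. In 4F-mini-oocytes at day 21 the order was Lsm14b, Eif4e1b, Ybx2, Eif4enif1, Zar1, Cpeb1, Lsm14a, Ddx6, Zar1l and Patl2, where Zar1 overlapped with Cpeb1, Ddx6 with Zar1l, and Zar1l with Patl2. In 8F-mini-oocytes Zar1 and Cpeb1 stood above Eif4enif1, and Ddx6 was the last of the 10. Ddx6 thus went from the fourth place at day 7 to the eighth in 4F- and the last in 8F-mini-oocytes at day 21.

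Ratios within a library depend little on how the library was scaled, and 6 storage genes were set against a relative. The ratios are log2 values of TPM + 1, so their sign also depends on the exon lengths used. With 2 libraries against 3 the exact permutation test cannot give a two-sided p under 0.1, and with 2 against 2 none under 0.333, so no ratio can pass a threshold of 0.05, and none of the 18 comparisons has an adjusted p that could.

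Eif4e1b was below Eif4e, the general cap-binding protein, at day 7 and far above it at day 21. The log2 ratio was -3.10 and -1.64 at day 7, 3.30, 3.31 and 3.34 in 4F-mini-oocytes and 3.10 and 3.08 in 8F-mini-oocytes. The sign changed between the days in all libraries, by 5.69 in 4F-mini-oocytes (exact permutation p = 0.1, two-sided, the smallest the design allows). Eif4e itself was at 33.8 and 69.6 TPM at day 7 and between 80.2 and 92.1 TPM at day 21.

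Patl2 crossed its relative in the same way. Patl1, the PAT1 protein of somatic cells, stayed between 43.6 and 55.4 TPM in the 7 libraries. The log2 ratio of Patl2 to Patl1 was -1.52 and -1.58 at day 7, 1.23, 1.23 and 0.77 in 4F-mini-oocytes and 1.6 and 1.39 in 8F-mini-oocytes, a change of 2.63 between the days in 4F-mini-oocytes (exact permutation p = 0.1, two-sided).

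Lsm14b lost part of its lead over Lsm14a. The log2 ratio was 4.46 and 4.52 at day 7, 3.50, 3.65 and 3.33 in 4F-mini-oocytes at day 21, and 3.14 and 3.10 in 8F-mini-oocytes. No library of a group overlapped with those of another group. The difference was -0.99 between the days (exact permutation p = 0.1, two-sided) and -0.38 between 8F and 4F (exact permutation p = 0.2, two-sided).

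The other ratios moved less or were uneven at day 7. Zar1 to Zar1l was 1.90 and 5.40 at day 7, where Zar1l was at or near 0, and between 1.35 and 1.90 at day 21. Ybx2 to Ybx1, the Y-box protein of most cells, was 1.34 and 0.24 at day 7, between 0.30 and 0.51 in 4F-mini-oocytes and 1.34 and 1.03 in 8F-mini-oocytes at day 21, so that the 8F libraries lay above the 4F libraries by 0.77 (exact permutation p = 0.1, two-sided). Cpeb1 to Cpeb4, which binds like elements in later maturation, was 2.46 and 2.63 at day 7, between 2.04 and 2.59 in 4F-mini-oocytes, and 3.05 and 3.18 in 8F-mini-oocytes, a difference of 0.75 between 8F and 4F (exact permutation p = 0.1, two-sided).

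**Figure D4:**
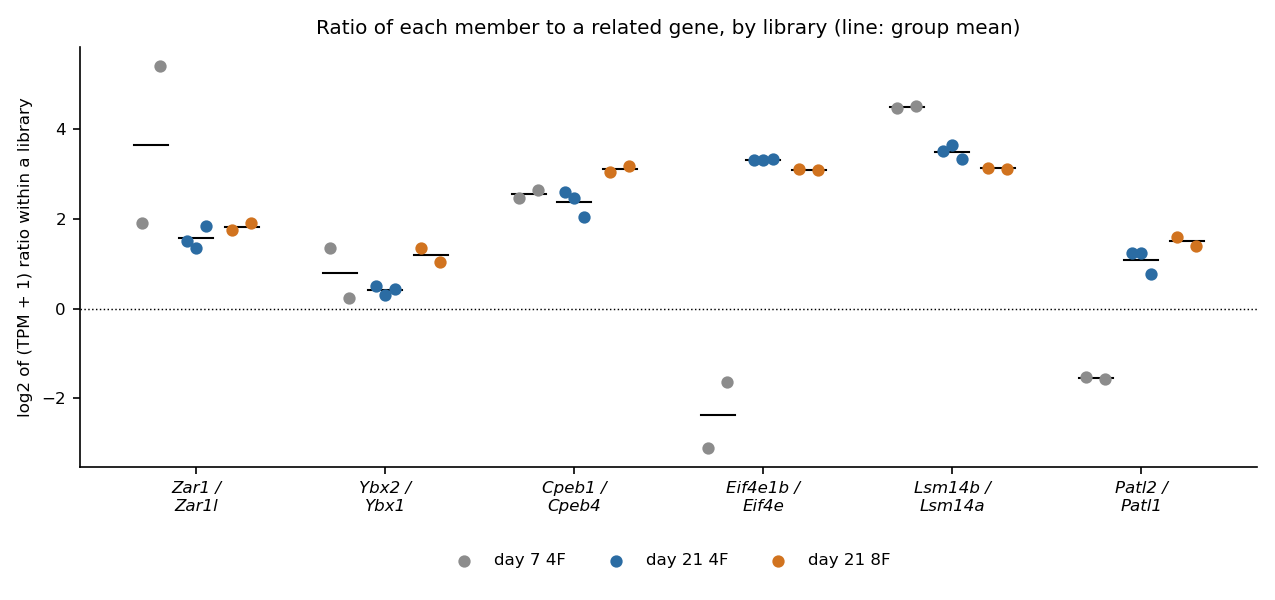
Log2 ratio of TPM + 1 of a storage gene to a relative within each library (vertical axis), for 6 pairs and 3 groups; points are libraries and lines the group means. The ratios of Eif4e1b to Eif4e and of Patl2 to Patl1 lie below 0 at day 7 and above 0 in the 5 day 21 libraries.

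Genes that work with these proteins were taken as 5 lists of 46 genes in all. From day 7 to day 21 of 4F-mini-oocytes, 23 of the 46 rose and 1 fell at FDR 0.05 in limma, beside the 25.3% and 15.3% of all tested genes, and the median was 0.53 against 0.17 for all genes. The balance depended on the scaling, with 18 higher of 26 called with median-of-ratios factors, 18 of 29 with quantile normalization, 17 of 35 with voom and 18 of 26 without the top genes. Between 8F and 4F at day 21, 2 were higher and 9 lower, beside the 8.37% of all genes, with a median of -0.13 against 0.06. The count of 11 fell to 1 without the trend in limma's eBayes and to 0 when either 8F library was left out.

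Of the 9 related genes, 5 rose between the days, beside 25.3% of all tested genes. Ybx1 went from 164 and 197 TPM to 544, 650 and 578 TPM in 4F-mini-oocytes and was at 308 and 335 TPM in 8F-mini-oocytes. It rose by 1.71 between the days (limma, adjusted p = 0.000187) and fell by 0.87 between 4F and 8F on the log2 scale (limma, adjusted p = 0.0139), and was the only related gene past FDR 0.05 between 8F and 4F. Its call between 8F and 4F was kept in 15 of 19 other settings. Eif4e3, another member of the eIF4E family, rose by 1.37 between the days (limma, adjusted p = 0.000346).

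Poly(A)-binding proteins held the largest change of the lists. Pabpc1l, which encodes the embryonic poly(A)-binding protein of oocytes, was at 0.281 and 3.44 TPM at day 7, at 207, 205 and 191 TPM in 4F-mini-oocytes and at 190 and 188 TPM in 8F-mini-oocytes at day 21. Its log2 fold change between the days was 6.41 (limma, adjusted p = 0.000169), from 4.95 to 7.44 over the other settings, with 5.51 and 7.30 without replicate 1 and 2 of day 7. Pabpn1l, an oocyte relative of Pabpn1, rose from 27.0 and 33.4 TPM to 540, 605 and 522 TPM and was at 320 and 359 TPM in 8F-mini-oocytes. Of the 5 genes of this list, 4 rose between the days, beside 25.3% of all tested genes. Pabpc1l and Pabpn1l kept this call in 19 of 19 other settings, the remaining ones in only 4 and 5. In 8F-mini-oocytes 3 were lower, beside 8.37% of all tested genes called in either direction, and each kept its call in 12 of 19 settings. The log2 fold change was -0.71 for Pabpn1l (limma, adjusted p = 0.0253). It was -0.92 for Pabpn1, the general nuclear form, and -0.62 for Pabpc1, the general cytoplasmic form (limma, adjusted p = 0.029 and 0.0189).

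Of the 11 genes of cytoplasmic polyadenylation, 7 rose between the days and none fell, beside 25.3% higher and 15.3% lower of all tested genes. The rises kept their call in 6 to 19 of 19 other settings. Genes of the list with a negative log2 fold change and no call here were past FDR 0.05 in up to 4. Tacc3, which encodes a spindle protein related to the CPEB partner Maskin of frog oocytes, rose from 159 and 175 TPM to 1070.5, 1029.5 and 1004.0 TPM, a log2 fold change of 2.63 (limma, adjusted p = 3.8e-05). Fip1l1, a subunit of the cleavage and polyadenylation factor, rose from 53.1 and 49.1 TPM to 280, 268 and 250 TPM, by 2.36 on the log2 scale (limma, adjusted p = 4.2e-05). Both were lower in 8F- than in 4F-mini-oocytes, Tacc3 at 756 and 764 TPM and Fip1l1 at 173 and 180 TPM (limma, adjusted p = 0.0372 and 0.02). This call was kept in 8 of 19 other settings for Tacc3 and in 13 for Fip1l1.

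Of the 11 decapping and P-body genes, 5 rose between the days, beside 25.3% of all tested genes. Among them was Dcp1a, a cofactor of the decapping enzyme, which went from 75.9 and 74.1 TPM to 324, 281 and 311 TPM. Lsm1, a subunit of the ring that binds shortened tails, rose from 19.0 and 26.2 TPM to 74.7, 75.1 and 87.6 TPM. The ataxin-2 genes differed between 8F and 4F in opposite directions: the log2 fold change was -0.69 for Atxn2 and 0.53 for Atxn2l (limma, adjusted p = 0.0235 and 0.0288). Each kept this call in 12 of 19 other settings. Of the 10 repressors, 2 were higher and 1 lower between the days, near the shares of all tested genes (25.3% and 15.3%), with a median of -0.03 beside 0.17 for all genes. Caprin2, an RNA granule protein, rose by 1.2 on the log2 scale (limma, adjusted p = 0.00186). Dazl, which promotes or represses translation in germ cells, was at 67.8, 103 and 47.5 TPM in 4F- and at 11.9 and 4.77 TPM in 8F-mini-oocytes, a log2 fold change of -3.02 (limma, adjusted p = 0.0139). Eif4ebp1, which keeps eIF4E from the cap-binding complex, was at 26.0, 31.2 and 24.8 TPM in 4F- and at 76.5 and 72.8 TPM in 8F-mini-oocytes, a log2 fold change of 1.42 (limma, adjusted p = 0.0324). The call between 8F and 4F was kept in 16 of 19 other settings for Dazl and in only 10 for Eif4ebp1.

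**Figure D5:**
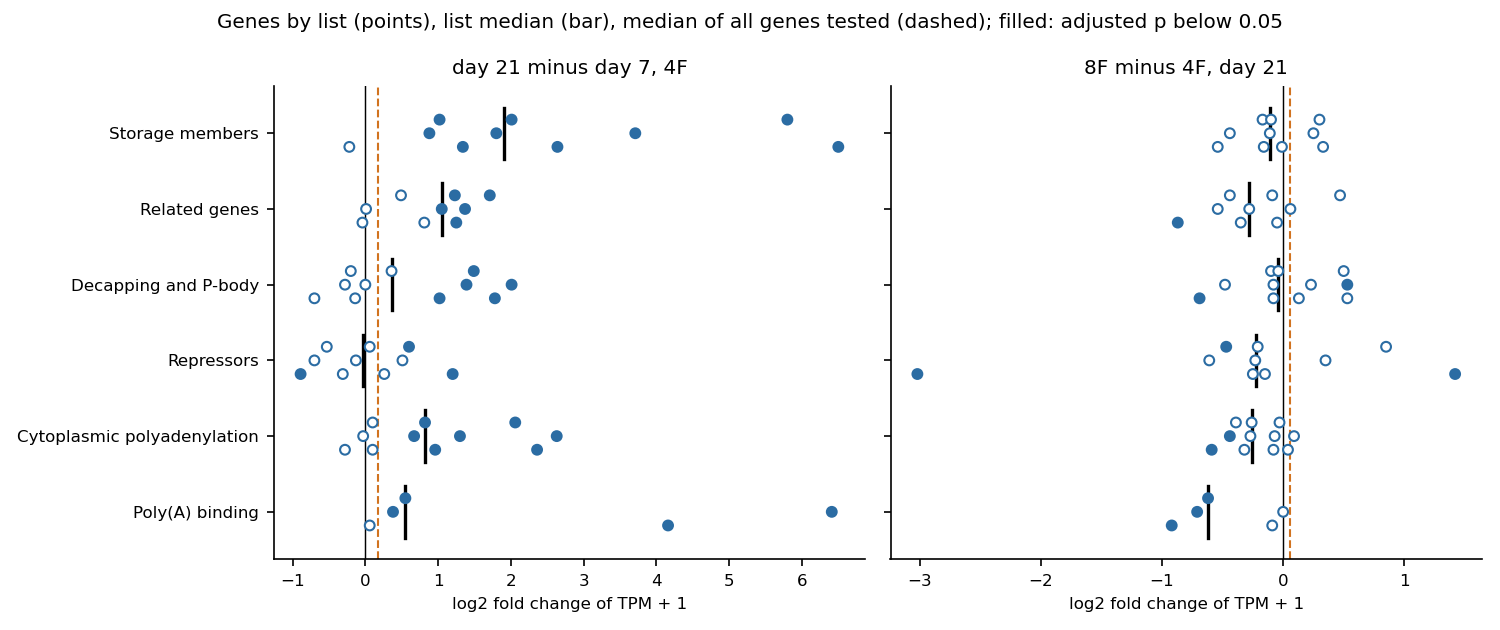
Log2 fold changes of TPM + 1 (horizontal axis) of the storage genes and of the 5 lists of genes that work with them (rows), for day 21 against day 7 of 4F-mini-oocytes (left) and between 8F and 4F at day 21 (right). Each point is a gene, filled where it passed FDR 0.05 in limma, bars are list medians and the dashed line the median of all genes; 23 list genes on the left are filled to the right of 0, and 9 on the right are filled to the left of 0.

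The genes with the most similar course over the 7 libraries were looked up among 12685 genes whose mean reached 10 TPM in a group, by the root mean square difference of log2(TPM + 1) after centring each gene. The closest match was that of Eif4enif1 with Myo19, at 0.0366 log2 units, followed by Lsm14b with Ubxn4 (0.0488) and Lsm14a with Cdc42bpb (0.0549). Ddx6 was nearest to Rlf (0.0707), Ybx2 to Dph3 (0.0966), Patl2 to 2700062C07Rik (0.121), Zar1 to Drd3 (0.156) and Eif4e1b to Trim61 (0.161). The most distant was Zar1l, with Barx2 at 0.526. The 5 genes nearest to the mean course of the 10 were Laptm4b, Atp10b, Sap30l, Usp30 and Ggct, between 0.063 and 0.107. Within the list, the courses of Eif4enif1 and Lsm14a were the most alike, at 0.0986, and those of Eif4e1b and Ddx6 the least, at 3.15. These are descriptions over 7 libraries in 3 groups, which share their scaling. The added 1 TPM flattens the course of low genes. Drd3, for example, had a mean of 0.503 TPM at day 7 and 15.2 TPM in 4F-mini-oocytes at day 21.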

How the data were processed

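RNA-seq libraries of mini-oocytes (SMART-seq Stranded Kit, paired reads on NovaSeq instruments of more than 1 model and read length, not named per library) were trimmed by the authors with Trim Galore!, aligned to mm10 with HISAT2, cleared of rRNA reads with bedtools, restricted to uniquely mapped reads and assigned to GENCODE vM25 genes with featureCounts, and the deposited values are TPM. Reads on several genes were split between them and a strand setting is not mentioned, so overlapping and antisense genes can share reads, and near-identical copies lose reads. The authors' read counts were not used here, and edgeR, which the authors ran on them, was replaced by a log-scale model.

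The 21780 of 55364 genes that reached 1 TPM in 2 or more of the 7 libraries entered limma 3.58.1 (R 4.3.3) as log2(TPM + 1), with eBayes trend, 3 groups and two-sided tests, at a Benjamini-Hochberg FDR of 0.05. Fold changes on this scale are understated for low genes. Ratios were compared with exact permutation tests.

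Low TPM values rise in steps of a read, which gave the depth with GENCODE vM21 exon lengths: whole reads (within 0.02) explained 77.7% to 83.8% of low values and sixths of a read 99.0% to 99.7%. Replicates differed by more than sampling noise (chi-square per degree of freedom between 9.77 and 35.4).

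The 10 genes and the lists were chosen with earlier results of these data known. From each list at most 4 genes are named, the 2 with the largest change past FDR 0.05 in each of day 21 minus day 7 and 8F minus 4F, and all relatives used in a ratio, while Pabpc1 was named outside this rule after its values were seen. Some genes that the rules name are not reported here. The search of 3′ UTR ends was also chosen then. Alternatives tried were pseudocounts of 0.1 and 5, filters of 5 TPM and of none, median-of-ratios and quantile scaling, a fit to only the 2 groups, no trend, array weights, the replicate block, each library left out and, chosen after seeing the data, voom on recovered reads and TPM without the 10 top genes of each library.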

Additional observations from a re-analysis of the deposited data

How the results depend on the processing

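For day 21 against day 7 of 4F-mini-oocytes, the 9 storage genes past FDR 0.05 kept their direction and call in all 19 other settings, and Ddx6 was added in 4 (median of ratios, quantile, voom and without the top genes). Of 570 values of storage genes under other settings, 532 kept direction and call, 18 lost and 13 gained the call, and 7 changed sign, as did 2 of 102 ratios. All 7 were differences between 8F and 4F with no call: Zar1l, at -0.01 here, was at 0.04 with quantile normalization, 0.14 with voom, 0.02 without the top genes and from -0.14 to 0.11 with each library left out, and with voom Ybx2 was at 0.05 and Eif4enif1 at 0.04. The ratio of Ybx2 to Ybx1 ranged from -0.92 to 0.18 between the days and from -0.15 to 0.95 between 8F and day 7 with each library left out. For 8F minus 4F, 1822 genes were called; 994 without the trend, 3572 with array weights, 164 with the replicate block and from 306 to 2221 with each library left out (943, 924 and 1021 without 4F replicates 1, 2 and 3, and 306 and 357 without 8F replicates 1 and 2). Of the storage genes, 0 were called there; 1 with the filter of 5 TPM, 2 with array weights, 1 with only the 2 groups, 3 with voom and 0 to 1 with each library left out, the 1 being Ddx6 without either day 7 library (limma adjusted p of 0.0449 and 0.0446). Of the 46 list genes, 11 were called there; 1 without the trend, 0 with the replicate block, 0 to 12 with each library left out (2, 2 and 3 without the 4F replicates, 0 without either 8F library). For 8F at day 21 against 4F at day 7, each library left out gave 4089 to 8281 genes, against 8103, and 16 to 24 list genes, against 25, lowest without an 8F library, where Ybx2 lost its call too. The cause of these changes was not tested. Where a fit leaves a group with 1 library, that library is assumed to vary like the others.

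Libraries with the same replicate number did not deviate together (correlations of their deviations between -0.04 and 0.01). In groups of 2 libraries the deviations mirror each other, so this cannot tell whether the samples were paired. With the replicate number as a block, 7241 genes were called between the days and 7037 between 8F at day 21 and day 7, and 9, 9 and 0 storage genes in the 3 comparisons.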
